A study of Mus musculus with 12 samples.

Results

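The serotonin and dopamine receptors described here are 10 genes, Htr1a, Htr1b, Htr2a, Htr2c, Htr4, Htr5a, Htr7, Drd1a (now Drd1), Drd2 and Drd5, chosen by name out of 37310 genes counted, of which 22398 had a count in any library. They were followed over 4 groups, the TRAP and input libraries of WT and of KO mice, with 3 pools of mice in each. All mice were C57BL/6 and carried the Cre-dependent eGFP-L10a allele at Rosa26, and all received a retrograde HSV with Cre under the hEf1α promoter in NAc 3 weeks before ventral hippocampus (vHPC) was punched. The KO mice were also FosB fl/fl, so that Cre removes exons of FosB in cells whose axons reach NAc, and the WT mice were littermates without the floxed allele. TRAP (translating ribosome affinity purification) collects the mRNA on GFP-tagged ribosomes with anti-GFP antibodies, and input is the RNA of the whole punch. From each pool came one TRAP and one input library, with WT pools numbered 1 to 3 and KO pools 2 to 4, each of 3 mice by the labels and 3 to 4 by the methods. The retrograde Cre acts in every cell that it reaches from NAc, in any region, and Cre is present in both genotypes.

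Serotonin and dopamine reach vHPC by axons from the midbrain, and with one exception their receptors act through G proteins. Htr1a, Htr1b and Htr5a lower cAMP through Gi, Htr4 and Htr7 raise it through Gs, and Htr2a and Htr2c release calcium through Gq. Among the dopamine receptors Drd1a and Drd5 raise cAMP and Drd2 lowers it. The exception is the family of Htr3 channels. In hippocampus, Htr1a is known as a strong inhibitory receptor of pyramidal neurons, Htr3a is known from GABA interneurons, and Drd1a and Drd2 are best known from the projection neurons of the striatum.

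On mm9, Htr1a (ENSMUSG00000021721.4) lies on chromosome 13 from 106233773 to 106238213 and Htr2c (ENSMUSG00000041380.6) on chromosome X from 143397056 to 143631820. Htr7 (ENSMUSG00000024798.9) lies on chromosome 19 from 36033224 to 36131997, Htr2a (ENSMUSG00000034997.4) on chromosome 14 from 75040647 to 75106666 and Htr5a (ENSMUSG00000039106.5) on chromosome 5 from 28168487 to 28181626. Drd1a (ENSMUSG00000021478.5) lies on chromosome 13 from 54146555 to 54151027 and Drd2 (ENSMUSG00000032259.6) on chromosome 9 from 49148732 to 49216282. Htr4 is ENSMUSG00000026322.8. Htr1b (ENSMUSG00000049511.4) lies on chromosome 9 from 81524950 to 81526222, and 66.9% of its exon bases are shared with D430036J16Rik on the other strand. Drd5 (ENSMUSG00000039358.2) lies on chromosome 5 from 38710748 to 38713549 and shares 49.5% of its exon bases with Gm16766 on the other strand. The strand setting of the counting is not given in the sources used here, so the counts of Htr1b and Drd5 are uncertain. The other 8 members share no exon base with another gene, and no stretch of 75 bases from the exons of the 10 members had another place in mm9 at up to 2 mismatches.

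FosB proteins pair with Jun proteins and bind the AP-1 site TGACTCA, and CREB binds TGACGTCA, so both were searched in the RefSeq promoters of GRCm38.p6, on both strands, from 250 bases before to 50 after the start. Windows were found for 9 of the 10 members, 10 windows in all. None held TGACTCA, which 5.20% of 32851 promoters hold, and none held TGACGTCA, which 1.79% hold. With any base at the centre (TGANTCA, in 7.81% of promoters), a match was found in Htr2c alone, 198 bases before the start, and its central A is not that of the AP-1 site. The 250 bases before the start are shown for Htr2c and Drd2, the members whose TRAP levels did not overlap between genotypes, with that match in capitals. The Htr2c stretch is chrX:146962263-146962512 and the Drd2 stretch chr9:49340153-49340402, both on the plus strand of GRCm38.p6, with a GC content of 55.6% and 68.8%.
Htr2c: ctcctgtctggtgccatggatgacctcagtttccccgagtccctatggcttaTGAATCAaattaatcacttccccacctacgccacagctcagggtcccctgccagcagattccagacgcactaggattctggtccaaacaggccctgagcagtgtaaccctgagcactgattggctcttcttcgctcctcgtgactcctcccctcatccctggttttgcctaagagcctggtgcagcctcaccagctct
Drd2: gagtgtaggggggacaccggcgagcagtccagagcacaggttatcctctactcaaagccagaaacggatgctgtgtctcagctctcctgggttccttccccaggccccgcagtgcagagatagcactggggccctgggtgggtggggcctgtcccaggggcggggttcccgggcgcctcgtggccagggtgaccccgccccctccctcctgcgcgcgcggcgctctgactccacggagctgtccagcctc
A match of letters is a description of the window and says nothing of binding.

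The libraries held 3416030 to 5614089 counts on genes. Levels are given as CPM, the share of a library's counts scaled by TMM (trimmed mean of M values), and 3 counts correspond to 0.534 to 0.878 CPM before that scaling. This floor and the counting intervals given for summed reads do not cover error from amplification, which copies molecules. Fosb, the targeted gene, stood at 32.0 to 45.3 CPM in WT TRAP and at 18.8 to 29.4 CPM in KO TRAP, and at 22.3 to 30.3 CPM in WT input and 14.9 to 17.1 CPM in KO input. No library went against its genotype label, but Fosb was not called by edgeR in TRAP (log2 fold change -0.76, adjusted p = 0.337) or in input (-0.68, adjusted p = 1.00). The counts cover the whole gene and not the deleted exons alone. Lists of cell type markers showed that 2 input libraries and 1 TRAP library stood apart. WT input 3 had the highest level of 6 of 9 markers of striatal projection neurons, which summed to 529 CPM there and to 190 to 332 CPM in the other 11 libraries. KO input 4 held Ttr, a marker of choroid plexus, at 231 CPM. KO TRAP 2 had 951 CPM in 12 markers of GABA neurons, against 455 to 702 CPM in the other 5 TRAP libraries. Gad1 and Gad2 stood there at 173 and 187 CPM, against 45.3 to 89.1 and 27.6 to 49.4 CPM in the other TRAP libraries. KO TRAP 2 was the highest of all 12 libraries for 2 of the 12 markers. Its Npy, at 19.9 CPM, lay below all WT TRAP libraries. All 10 markers of astrocytes, all 10 of oligodendrocytes and all 10 of microglia were lower in TRAP than in input over both genotypes (edgeR quasi-likelihood test, adjusted p under 0.05), as were 9 of the 12 GABA markers. Of 8 markers of CA1 and subiculum pyramidal neurons, the labelled target, 3 were higher and 1 lower in TRAP, and of 7 markers of dentate granule neurons tested 4 were lower. Among all 13214 genes tested 19.6% were higher and 22.5% lower by the same rule.

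Htr2c and Htr1a had the highest mean CPM of the members in every group, before exon length is taken into account. Htr2c gave 71 to 166 reads per library. WT TRAP 1, 2 and 3 had 28.2, 16.7 and 29.0 CPM, while KO TRAP 2, 3 and 4 had 35.5, 30.3 and 33.3 CPM. In input it stood at 26.8, 30.1 and 31.6 CPM in the WT pools and at 34.0, 27.8 and 36.3 CPM in the KO pools. The low library of WT TRAP was pool 2, and all KO TRAP libraries lay above all WT TRAP libraries.

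Htr1a, the Gi-coupled receptor that opens potassium channels, measured 17.1, 26.9 and 13.6 CPM in the WT TRAP libraries, and in KO TRAP 10.6, 16.1 and 15.2 CPM. In input it stood at 19.8, 23.7 and 13.5 CPM in the WT pools and at 15.7, 19.8 and 21.4 CPM in the KO pools. All 4 groups overlapped, and pool 2 was the highest of both WT groups. Htr5a, also Gi-coupled, averaged 9.97 ± 4.02 CPM (SD, n = 3) in WT TRAP, 12.2 ± 4.73 CPM in KO TRAP, 11.7 ± 1.74 CPM in WT input and 12.5 ± 2.51 CPM in KO input, with n = 3 in each. The other Gi-coupled serotonin receptor among the members, Htr1b, had 1 read in the 6 TRAP libraries together, in KO TRAP 3, and 1 to 7 reads in each input library. It lay under the floor of 3 counts in all 6 TRAP libraries.

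Htr7 and Htr4 are the Gs-coupled serotonin receptors among the members. Htr7 measured 6.24, 2.12 and 7.72 CPM in the WT TRAP libraries, and in KO TRAP 7.55, 4.40 and 4.16 CPM. In input it stood at 16.9, 5.74 and 8.18 CPM in WT and at 10.2, 7.12 and 8.74 CPM in KO. Within every pool the TRAP library was the lower one, although the TRAP and input groups overlapped. Htr4 ran from 3.20 to 10.5 CPM in WT TRAP, 3.36 to 10.3 CPM in KO TRAP, 4.42 to 8.73 CPM in WT input and 4.75 to 7.21 CPM in KO input. These ranges lie over one another.

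Htr2a, the Gq-coupled receptor that hallucinogens act on, gave 1 to 24 reads per library. It measured 0.535, 1.65 and 5.06 CPM in the WT TRAP libraries, and in KO TRAP 2.52, 0.244 and 1.96 CPM. In input it stood at 2.33, 5.51 and 1.77 CPM in WT and at 4.99, 5.12 and 4.37 CPM in KO. WT TRAP 3 was the only TRAP library above 3 CPM, while the KO input libraries all lay above the KO TRAP libraries.

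Drd1a, the main Gs-coupled dopamine receptor, measured 3.39, 1.65 and 5.33 CPM in the WT TRAP libraries, and in KO TRAP 6.71, 0.244 and 1.96 CPM. In input it stood at 5.82, 4.36 and 7.29 CPM in WT and at 6.65, 4.45 and 2.19 CPM in KO. Its spread was widest in KO TRAP, where pool 2 had 24 reads and pool 3 had 1, and the variance over pools was 15.02 times the counting variance. Drd5, the other receptor of that class, had 0 to 7 reads in a library, 5 in the 6 TRAP libraries together and 18 in the 6 input libraries.

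Drd2, the Gi-coupled dopamine receptor, had 4, 0 and 0 reads in WT TRAP 1, 2 and 3, and 11, 12 and 8 reads in KO TRAP 2, 3 and 4. In CPM these are 0.713, 0 and 0 against 3.08, 2.93 and 1.96. A count of 0 allows up to 3 reads, which is 0.694 CPM in WT TRAP 2 and 0.805 CPM in WT TRAP 3 before TMM scaling. In input Drd2 stood at 0.582, 2.53 and 7.96 CPM in the WT pools and at 4.28, 1.34 and 1.53 CPM in the KO pools. The highest of the 12 libraries was WT input 3, the one with the high striatal markers, and the variance over the WT input pools was 15.1 times the counting variance.

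**Figure D1:**
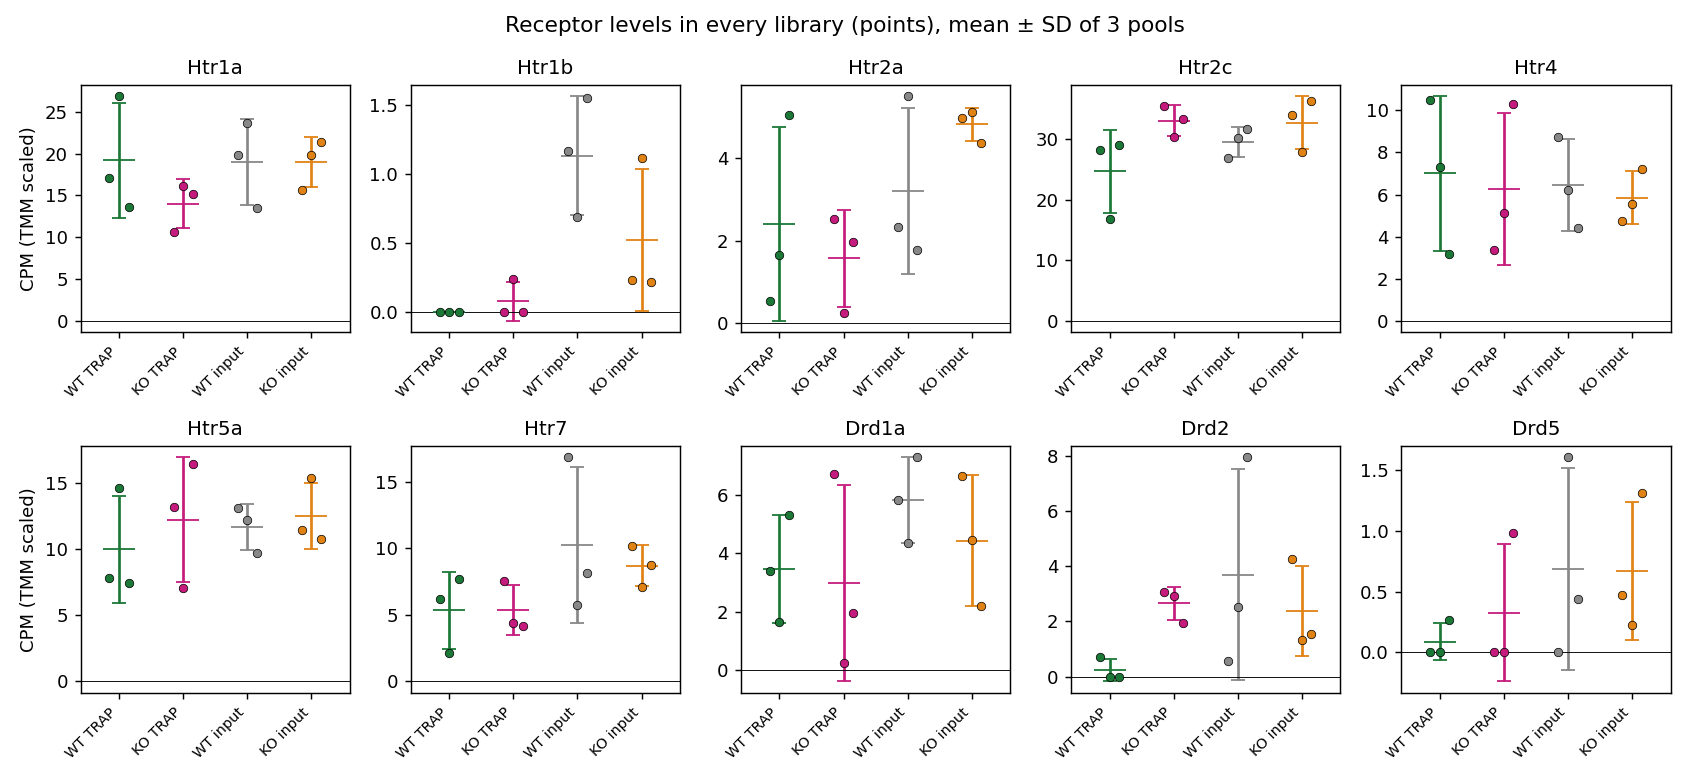
Level of each receptor in every library, in CPM scaled by TMM (vertical axis, a separate scale for each gene), for the 4 groups on the horizontal axis; points are libraries, and horizontal marks with bars are the mean ± SD of 3 pools. Htr2c (16.7 to 36.3 CPM) and Htr1a (10.6 to 26.9 CPM) have the highest means in every group, and Drd2 in WT TRAP (0 to 0.713 CPM) lies below all KO TRAP values.

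Levels of different genes were compared per kilobase of exon. In WT TRAP the order was Htr1a at 4.32 ± 1.55 CPM per kb, Htr2c at 2.64 ± 0.74, Htr5a at 1.79 ± 0.72, Htr7 at 1.58 ± 0.85 and Htr4 at 1.504 ± 0.79 CPM per kb (SD, n = 3). Drd1a followed at 0.980 ± 0.52 and Htr2a at 0.813 ± 0.79 CPM per kb, and Drd2, Drd5 and Htr1b averaged under 0.1 CPM per kb. In KO TRAP Htr2c was first at 3.54 ± 0.28 CPM per kb and Htr1a the second at 3.15 ± 0.66, and Drd2 was sixth at 1.04 ± 0.24 CPM per kb. In both input groups Htr1a was first, at 4.27 ± 1.16 CPM per kb in WT and 4.27 ± 0.67 in KO, followed by Htr2c, Htr7 and Htr5a. Neighbours in each order overlapped over their pools and cannot be ordered, except Htr5a over Htr2a in KO input.

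The comparison of TRAP with input asks which receptor mRNAs were more or less frequent on the tagged ribosomes than in the whole punch. Over both genotypes 2 receptors passed the test, Htr7 and Drd2, both lower in TRAP, and none was higher. Of the 10 members, 8 passed the expression filter, and Htr1b and Drd5 did not. Among all 13214 genes tested, 22.5% were lower and 19.6% higher in TRAP by the same rule, so 2 lower of 8 tested is close to the background. The median log2 ratio of the 8 members was -0.44, beside -0.01 over all genes tested. In bulk samples fewer cells of a type and less RNA per cell cannot be told apart.

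Htr7 was lower in TRAP by a log2 ratio of -0.81 (standard error 0.32, edgeR quasi-likelihood test with Benjamini-Hochberg adjustment over all genes, adjusted p = 0.0424). It was lower in 6 of 6 pools, with log2 ratios from -1.37 in WT pool 1 to -0.08 in WT pool 3 (p = 0.03125 by exact sign flips over pools, two-sided, the smallest p that 6 pools allow). The call is at the edge of the threshold. Without WT pool 1, KO pool 2, KO pool 3 or KO pool 4 the adjusted p from edgeR was 0.156, 0.0630, 0.0907 and 0.152, and it was 0.0782 without the single library KO input 4.

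Drd2 was lower in TRAP by a log2 ratio of -1.72 (standard error 0.65, edgeR adjusted p = 0.0334), but its pools did not share the direction. The ratio was 0.16, -2.60 and -4.08 in WT pools 1, 2 and 3, and -0.42, 0.90 and 0.28 in KO pools 2, 3 and 4 (p = 0.406 by exact sign flips over pools, two-sided). With the pool as a block, which joins the TRAP and input library of a pool, the log2 ratio was -0.98 and the edgeR adjusted p = 0.310. Leaving out the single library WT input 3, where the striatal markers were high, gave -1.09 and an edgeR adjusted p of 0.228. The call was also lost without WT pool 2, WT pool 3, KO pool 2 or KO pool 4 (edgeR adjusted p = 0.0746, 0.346, 0.157 and 0.0752), and the log2 ratio was -0.90 without WT pool 3. Without WT pool 1 no read was left in WT TRAP, and no value is given. Of the 9 striatal markers 7 were tested over both genotypes, of which 2 were called lower in TRAP and 0 higher by edgeR, with a median log2 ratio of -0.18. They summed to 190 to 332 CPM in the TRAP libraries and to 206 to 270 CPM in the input libraries other than WT input 3. Penk was the single one with a ratio above 0 (0.26, edgeR adjusted p = 0.693), named here after its values were seen. Adora2a, also of the 9 and named after its values were seen, is the adenosine receptor of Drd2-bearing striatal neurons. It stood at 8.18 CPM in WT input 3 and at 1.11 to 3.90 CPM in the other input libraries. In TRAP it stood at 0 to 0.799 CPM. The part of the striatal markers in this result was not tested further.

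Htr2a had a log2 ratio of TRAP to input of -1.05 over both genotypes (edgeR adjusted p = 0.106) and was lower in 5 of 6 pools, the exception being WT pool 3 at 1.29. Without that pool the ratio was -1.75 (edgeR adjusted p = 0.0187). In KO alone Htr2a was lower in TRAP by a log2 ratio of -1.63 (standard error 0.59, edgeR adjusted p = 0.0407), the single member called of 8 tested, where 15.9% of all 12463 genes were called lower. That call was lost without KO pool 3 (edgeR adjusted p = 0.209), without KO pool 4 (0.125), without KO input 4 (0.0887) and with DESeq2 (0.0511). The log2 ratios of Htr2a in KO pools 2, 3 and 4 were -0.86, -2.92 and -0.99, with 1 TRAP read in pool 3. In WT alone none of 7 members tested was called by edgeR or by DESeq2, nor had any an unadjusted p under 0.05 from edgeR, where 24.9% of 12426 genes were called, and Htr2a had a ratio of -0.46. Drd2 was not among the 7, and without the expression filter it was called lower in WT TRAP (log2 ratio -3.62, edgeR adjusted p = 0.00529). In that fit 3479 of 20728 genes were called. WT input 3 held 36 of the 49 Drd2 reads of WT input, and WT pool 1 had 4 Drd2 reads in TRAP and 2 in input. The difference of the Htr2a ratios between genotypes was -1.15 with a 95% interval from -3.26 to 0.97.

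The other members did not pass the test over both genotypes. Their log2 ratios of TRAP to input were -0.68 for Drd1a (95% interval -1.65 to 0.29), -0.21 for Htr1a (-0.61 to 0.19), -0.12 for Htr2c (-0.42 to 0.17), -0.13 for Htr5a (-0.62 to 0.36) and 0.13 for Htr4 (-0.54 to 0.80). All of these intervals except that of Drd1a leave out a 2-fold change in either direction. Htr1b and Drd5 were compared by their summed reads. Htr1b was at a ratio of 0.0480 of TRAP to input (95% counting interval 0.00116 to 0.299, 1 against 21 reads). It was lower in TRAP in 6 of 6 pools, but with 0 reads in TRAP any input read makes a pool lower. KO pools 2 and 4 each had 0 reads against 1 and WT pool 2 had 0 against 3, too few for a direction. Fitted without the expression filter, Htr1b was called lower in TRAP over both genotypes (edgeR adjusted p = 0.0200 over 22398 genes) and Drd5 was not (adjusted p = 0.253). Within WT, where TRAP had no read of Htr1b and input 14, it was at least 5.16-fold lower against a floor of 3 counts over the group. Drd5 was at a ratio of 0.280 (95% counting interval 0.0813 to 0.783).

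**Figure D2:**
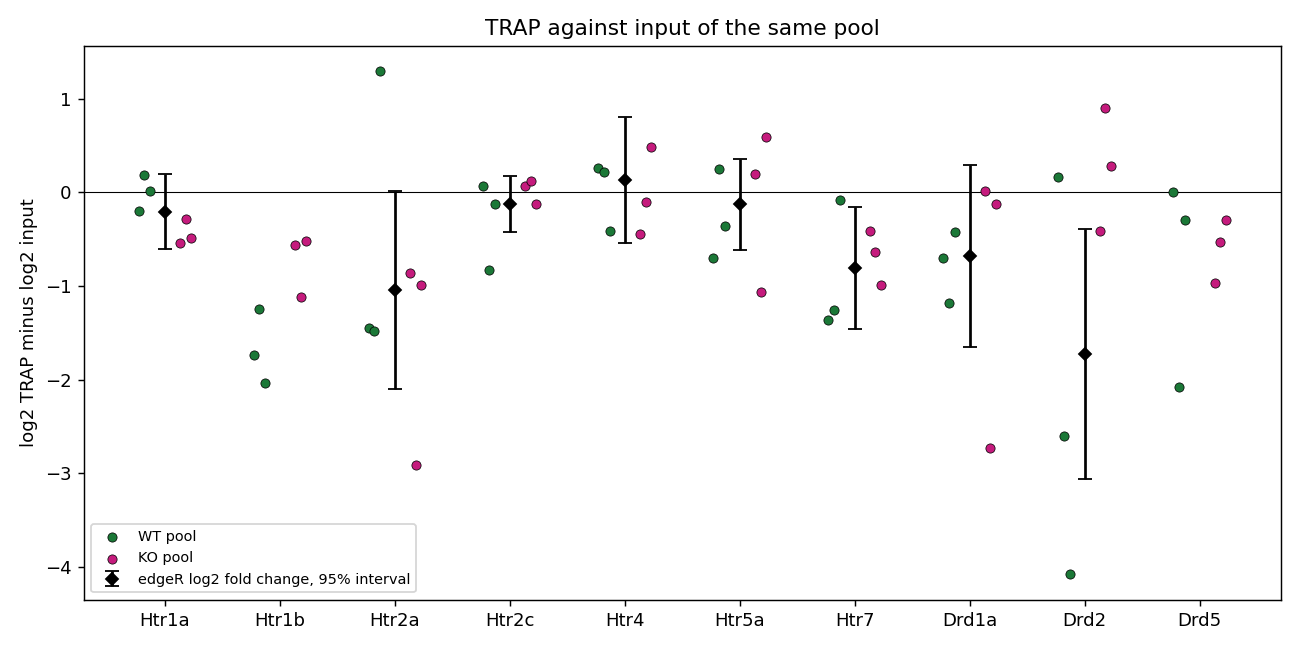
Log2 ratio of TRAP to input within each pool (points, from log2 of CPM + 0.5) and the edgeR log2 fold change over both genotypes with its 95% interval (diamonds; none for Htr1b and Drd5, which were not tested). Htr7 is below 0 in all 6 pools, and Drd2 spreads from -4.08, where TRAP had 0 reads, to 0.90.

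Other receptors of the families were read beside the members. Htr3a, the channel-forming serotonin receptor, was the clearest of them. It had 21, 17 and 23 reads in WT input, 29, 33 and 33 in KO input, 9, 4 and 2 in WT TRAP and 0, 1 and 6 in KO TRAP. Over both genotypes it was lower in TRAP by a log2 ratio of -2.87 (standard error 0.49, edgeR adjusted p = 2.64e-05), and it was lower in 6 of 6 pools. Of 12 markers of GABA neurons 9 were also lower in TRAP and 1 higher, with a median log2 ratio of -1.69. KO TRAP 2, the TRAP library with the highest sum of GABA markers, had 0 Htr3a reads. The part of these markers in the Htr3a result was not tested. Htr5b was the one receptor called higher in TRAP (log2 ratio 1.43, standard error 0.58, edgeR adjusted p = 0.0479), at the edge of the threshold. It had 3 to 22 reads in the TRAP libraries and 0 to 10 in input. It was higher in 6 of 6 pools, with log2 ratios from 0.02 in WT pool 1 to 3.54 in KO pool 2. Input had 0 reads in KO pool 2. Without the expression filter the log2 ratio was 0.73 in WT and 2.13 in KO (edgeR adjusted p = 0.571 and 0.0170). Htr6 and Htr1f had ratios of -0.52 and -0.82 and did not pass the test. Htr1d had 8 to 21 reads in a group, Htr2b at most 3 and Drd4 at most 6, none of them tested, and Htr3b and Drd3 had no read in any library.

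The comparison of KO with WT asks whether the removal of FosB from NAc-projecting neurons came with other levels of receptor mRNA. In TRAP none of the 6 members tested was called by edgeR or by DESeq2, and none had an unadjusted p under 0.05 from edgeR. Among all 11727 genes tested 0.0682% were called and 6.05% had an unadjusted p under 0.05. Htr1b, Htr2a, Drd2 and Drd5 did not pass the filter in this comparison. For single genes, the smallest p that exact permutation of 3 and 3 pools allows is 0.10. The groups did not overlap for Htr2c among the members tested and for Drd2 among those not tested, while 11.9% of all genes tested did not overlap.

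Htr2c averaged 33.0 ± 2.61 CPM in KO TRAP and 24.6 ± 6.86 CPM in WT TRAP (SD, n = 3 each). Its log2 fold change was 0.42 with a 95% interval from -0.03 to 0.87 (edgeR, adjusted p = 0.825). The low WT TRAP pool 2 carried much of that difference, and without it the log2 fold change was 0.21. In input Htr2c had a log2 fold change of 0.15 (95% interval -0.23 to 0.53). KO TRAP 2, the TRAP library with the highest sum of GABA markers, was the highest of the TRAP libraries for Htr2c. The other KO TRAP libraries also lay above the WT TRAP libraries. Choroid plexus, where Htr2c is known to be abundant, was read through 10 markers. They summed to 346 CPM in KO input 4, the library with the highest Htr2c of all 12, and to 23.8 to 97.7 CPM in the other input libraries. Without KO input 4 the log2 fold change of Htr2c in input was 0.063. In TRAP they summed to 12.3, 18.3 and 41.4 CPM in KO TRAP 2, 3 and 4 and to 21.9, 14.8 and 22.9 CPM in WT TRAP 1, 2 and 3, so that KO TRAP 4 was the highest and KO TRAP 2 the lowest. Ttr was at 0 in KO TRAP 2 and 3 and at 12.5 CPM in KO TRAP 4. Without KO pool 4 the log2 fold change of Htr2c in TRAP was 0.41, and without KO pool 2 it was 0.37. The part of the GABA and choroid plexus markers in these values was not tested further.

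Drd2 summed to 31 reads in KO TRAP and 4 in WT TRAP. The ratio of summed CPM was 8.97 with a 95% counting interval from 3.17 to 35.0, which does not hold the spread over pools. Without the expression filter Drd2 had a log2 fold change of 3.15 (standard error 1.12) and an edgeR adjusted p of 0.493 over 19273 genes. All 3 KO TRAP libraries lay above all 3 WT TRAP libraries. Striatal markers summed to 332, 190 and 260 CPM in KO TRAP 2, 3 and 4 and to 297, 227 and 229 CPM in WT TRAP 1, 2 and 3, so that their groups overlapped. Of the 9 markers 7 were tested in TRAP, and 5 were higher in KO, with a median log2 fold change of 0.20 and none called by edgeR or by DESeq2. Rgs9 was the single one with an unadjusted p under 0.05 from edgeR (log2 fold change 0.85, edgeR adjusted p = 0.809), and it did not overlap either, at 12.3, 10.02 and 11.5 CPM in KO TRAP 2, 3 and 4 and 4.81, 9.66 and 4.26 CPM in WT TRAP 1, 2 and 3. Pde10a had a log2 fold change of 0.33 (edgeR adjusted p = 0.820). Both are named here after their values were seen. Adora2a, which was not tested, was at 0 in KO TRAP 2 and 4 and in WT TRAP 2. Markers of monoamine neurons, some of which also bear Drd2, summed to 3.08, 6.35 and 3.92 CPM in KO TRAP 2, 3 and 4. In WT TRAP 1, 2 and 3 they summed to 1.43, 3.06 and 2.66 CPM. These sums of 8 genes did not overlap, but 3.08 and 3.06 CPM lie closer than 1 read, which is 0.280 CPM in KO TRAP 2. Of the 8 genes Dbh, Fev, Pitx3, Slc6a4 and Th were at 0 in all WT TRAP libraries, and Pitx3 and Slc6a4 also in all KO TRAP libraries. Th was at 0 in KO TRAP 4, and Slc6a3 at 0 in KO TRAP 3 and at 0.533 CPM in WT TRAP 3. None of the 8 could be tested in TRAP. The part of both marker lists in the Drd2 difference was not tested. In input Drd2 went the other way, with a log2 fold change of -0.67 (95% interval -2.20 to 0.86), which became 0.55 without WT input 3.

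**Figure D3:**
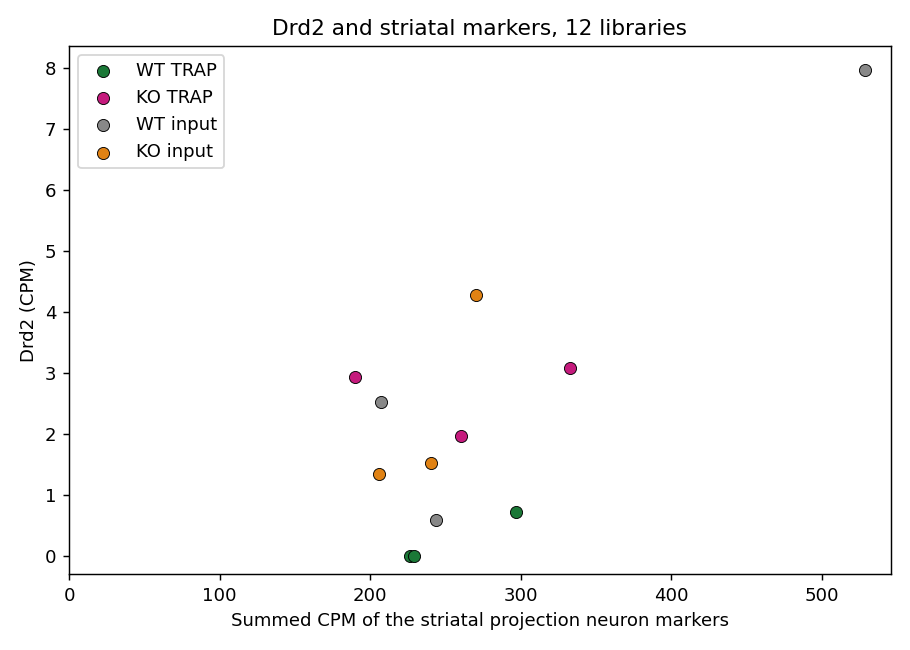
Drd2 in CPM (vertical axis) against the summed CPM of 9 striatal projection neuron markers (horizontal axis) in the 12 libraries, coloured by group. WT input 3 stands alone at 529 and 7.96 CPM, while the KO TRAP libraries lie above the WT TRAP libraries in Drd2 at overlapping marker sums.

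Taken as a difference of differences, the log2 ratio of TRAP to input of Drd2 was higher in KO than in WT by 3.77 (standard error 1.30, 95% interval 1.11 to 6.43). This was not called by edgeR (adjusted p = 1.00), where 0.00757% of 13214 genes were called and 2.71% had an unadjusted p under 0.05. It was the single member of 8 tested with an unadjusted p under 0.05. Without WT input 3 the difference was 2.56 and without WT pool 3 it was 2.12. Without WT pool 1 WT TRAP held no Drd2 read, and no value is given. For the other members the difference ran from -1.15 for Htr2a to 0.27 for Htr2c.

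The remaining members in TRAP had log2 fold changes of KO over WT of -0.45 for Htr1a (95% interval -1.05 to 0.15), 0.29 for Htr5a (-0.46 to 1.05), -0.18 for Htr4 (-1.17 to 0.82), -0.00 for Htr7 (-1.05 to 1.04) and -0.24 for Drd1a (-1.83 to 1.36). These intervals still hold 2-fold changes for all 5 of them in at least 1 direction. In input none of 8 members tested was called by edgeR or DESeq2, and none had an unadjusted p under 0.05 from edgeR, with 0.0312% of 12816 genes called and 2.89% under 0.05 unadjusted. The log2 fold changes in input ran from -0.67 for Drd2 to 0.58 for Htr2a, whose interval was -0.51 to 1.67. Htr1a, at 19.0 ± 5.14 CPM in WT input and 19.0 ± 2.96 CPM in KO input (SD, n = 3 each), had a log2 fold change of 0.01 (95% interval -0.51 to 0.52). No member was without overlap between the genotypes in input, where 8.38% of all genes tested were.

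**Figure D4:**
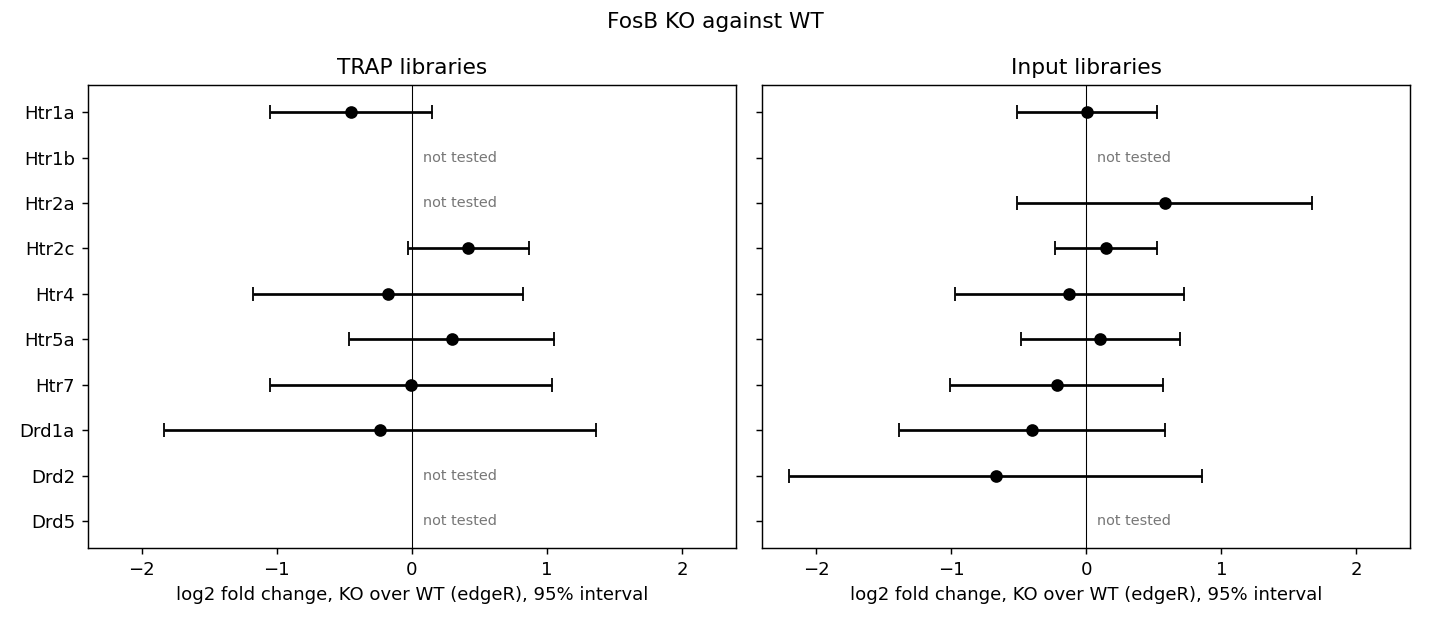
Log2 fold change of KO over WT from edgeR with its 95% interval for each member, in TRAP (left) and input (right); members that did not pass the expression filter are marked as not tested. Every interval includes 0, and the narrowest in TRAP is that of Htr2c, from -0.03 to 0.87.

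The partners through which these receptors signal were counted in the same comparisons. Over both genotypes, of 29 genes of Gs and Gi signalling tested, 6 were higher and 9 lower in TRAP (edgeR, adjusted p under 0.05). Among all genes tested 19.6% were higher and 22.5% lower, 42.2% in either direction. The kinase subunits Prkar1b (log2 ratio 0.69) and Prkar1a (0.48) and the Gi-class subunit Gnaz (0.57) were higher, and Rapgef4 (-0.78) and Rapgef3 (-1.51), exchange factors that bind cAMP, and Gnai2 (-0.53) were lower. Of 14 tested genes of Gq signalling 7 were higher and 3 lower. The protein kinase C genes Prkcc (0.87), Prkcb (0.62) and Prkce (0.38) were higher, and the calcium channel gene Itpr2 (-3.33) and the phospholipase genes Plcb3 (-2.48) and Plcb4 (-1.22) were lower.

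Of 20 genes of receptor desensitization and scaffolds 8 were higher and 5 lower in TRAP. The higher ones included Caly (0.68), named for its link to a dopamine receptor, S100a10 (1.07), which binds serotonin receptors, and the receptor kinase gene Grk6 (0.53). The lower ones included Rgs12 (-0.89), the cannabinoid receptor gene Cnr1 (-0.71) and the arrestin gene Arrb1 (-0.34). Of the genes for monoamine synthesis, transport and breakdown 5 of 12 could be tested. Ddc (1.97), the decarboxylase shared by serotonin and dopamine synthesis, was higher in TRAP, and the oxidase genes Maob (-2.42) and Maoa (-0.35) were lower. Slc6a4, the serotonin transporter of serotonin neurons, had no read in the 12 libraries. In KO against WT none of the 64 genes of these 4 lists tested in TRAP and none of the 68 tested in input was called by edgeR, with 7 and 2 at an unadjusted p under 0.05, where 6.05% of all genes tested in TRAP and 2.89% of those in input were. DESeq2 called 1 of them in TRAP and 0 in input, the adenylyl cyclase gene Adcy3, named here after its values were seen (log2 fold change -1.03 and adjusted p = 0.0493 from DESeq2, -1.03 and 0.110 from edgeR).

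The genes whose levels over the 12 libraries were most like those of each tested member were found by Pearson's r of log2(CPM + 0.5). They were Wdhd1 (0.955), Paqr4 (0.916) and Brca2 (0.904) for Htr2c, Tanc1 (0.877), Tcf4 (0.876) and Ppp4r4 (0.852) for Htr1a, and Amigo2 (0.943), Tmed7 (0.895) and Shroom3 (0.891) for Htr7. For Drd2 they were Gpr62 (0.938), Mrs2 (0.927) and Pde7b (0.896), and for Drd1a Stard10 (0.945), Pmepa1 (0.903) and Rimbp2 (0.891). For Htr2a they included Gm6055 (0.882) and 6430573F11Rik (0.871). Htr4 was most like Hs1bp3 (0.869), Gm10702 (0.861) and Myo16 (0.860), and Htr5a most like Zscan29 (0.860), Col22a1 (0.831) and C1galt1c1 (0.825). Each is among the 3 highest of 13213 genes over the same 12 libraries, which share pools and depth, so the values are a description.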

How the data were processed

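The counts deposited by the authors are raw numbers of reads per gene, not normalized, for each of the 12 libraries. TopHat had mapped the reads to mm9 and HTSeq-count had assigned them to genes of Gencode vM1, and DESeq2 was the stated test. Samples were grouped by the labels (genotype, pool number, input or TRAP), with a label lacking the word input read as TRAP. The test was that of edgeR 4.0.16 in R 4.3.3 (default expression filter by group, TMM, robust quasi-likelihood test), with Benjamini-Hochberg adjustment over all genes tested and a threshold of 0.05. Standard errors are the log2 fold change over the root of F. Single genes were compared by exact permutation tests of log2(CPM + 0.5) in scipy 1.17.1, all two-sided. Counting intervals are exact, at 95%. Exon stretches of 75 bases, every 25 bases, were aligned with minimap2 2.31. The edgeR fits of TRAP against input over both genotypes and of KO against WT in TRAP and in input were tested on simulated data. The fits within WT or KO alone, the difference of enrichment and the alternatives were not. The members and all lists were chosen with earlier results of these data known. The genes named are all members, all other receptors of both families with counts, up to 3 genes in each direction by p of each signalling list, and the 3 genes most like each tested member, of which some are not reported here. Each pool is a separate set of mice.

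TRAP and input libraries of the same number come from the same pool by the labels; their deviations from group means correlated at 0.058 to 0.106. Depths of 3416030 to 5614089 counts per library set the precision, given above as floors and intervals. Alternatives were RLE, total counts, no filter, a mean of at least 10 counts, no mitochondrial genome genes, DESeq2 1.42.0, edgeR without robust dispersion, a replicate block, a fit of all 12 libraries and leaving out each pool. Leaving out WT input 3 or KO input 4 alone was chosen after seeing the data.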

Additional observations from a re-analysis of the deposited data

Results flagged for a closer look

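The ratio of TRAP to input of Drd2 differed between the genotypes by a log2 difference of 3.77 (KO minus WT, standard error 1.30). It is listed because its unadjusted p from edgeR, in the fit of all 12 libraries, was 0.00717, which ranked 32 among 13214 genes, while its adjusted p was 1.00. WT pools 2 and 3 had ratios of -2.60 and -4.08 and the other 4 pools lay between -0.42 and 0.90.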

How the results depend on the processing

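The calls of Htr7, Drd2 and Htr2a in TRAP against input are near the threshold, and the members carry few reads, so depth limits what can be told of Htr1b, Htr2a, Drd2 and Drd5. Over both genotypes the members called numbered 2 with all libraries, 3 without the filter (Htr1b gained), 1 with total counts (Htr7 lost), with a mean of at least 10 counts (Drd2 not tested), without robust dispersion (Htr7 lost) and with the replicate block (Drd2 lost), and 0 to 2 when a pool or one of the 2 input libraries was left out. In WT they numbered 0, but 1 without the filter (Drd2) and in the fit of all 12 libraries, and 0 to 1 with a pool left out. In KO they numbered 1, but 0 with DESeq2 and in the fit of all 12 libraries, and 0 to 1 with a pool or KO input 4 left out. No member was called between genotypes, or for the difference of enrichment, under any alternative run.

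The count of all genes called between genotypes in TRAP was 8, but 41 without the filter and 18 with DESeq2, and 5 to 20 with a pool left out. In input it was 4, but 19 without the filter, 8 with DESeq2, 20 with the replicate block, 7 in the fit of all 12 libraries, and 1 to 5 with a pool or library left out. The difference of enrichment had 1 gene, 0 without robust dispersion and 0 to 1 with a pool left out. TRAP against input had 1289 to 3243 genes called in WT and 1982 to 3181 in KO with a pool or library left out, against 3096 and 3626.

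The values that changed sign belonged to members that were not called in the comparison concerned, although Htr7, Drd2 and Htr2a were called in others. With a pool or one of the 2 input libraries left out, log2 ratios of TRAP to input ranged from -0.037 to 0.24 for Htr4 and from -0.30 to 0.11 for Htr5a over both genotypes. In WT the ranges were -0.17 to 0.15 for Htr1a, -0.052 to 0.27 for Htr4 and -0.57 to 0.032 for Htr5a. In KO they were -0.050 to 0.087 for Htr2c, -0.28 to 0.28 for Htr4, -0.42 to 0.40 for Htr5a and -0.22 to 0.097 for Drd2. Without KO pool 2 Drd2 and Drd1a did not pass the filter in KO, nor did Htr2a in WT without WT pool 2, so these have no value, and the Drd2 range leaves out its ratio of 0.15 with all KO libraries. Log2 fold changes of KO over WT in TRAP ranged from -0.73 to 0.25 for Htr4, -0.37 to 0.33 for Htr7 and -1.61 to 0.33 for Drd1a. In input they ranged from -0.20 to 0.20 for Htr1a, -0.34 to 0.15 for Htr4, -0.072 to 0.20 for Htr5a, -0.51 to 0.32 for Htr7 and -1.37 to 0.55 for Drd2. Differences of enrichment ranged from -2.00 to 0.27 for Htr2a, -0.43 to 0.16 for Htr4, -0.19 to 0.63 for Htr5a, -0.21 to 0.68 for Htr7 and -0.82 to 0.72 for Drd1a.

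Htr2c in KO, TRAP to input, was -0.00029 with RLE, -0.0063 without mitochondrial genome genes and -0.00020 with DESeq2. With total counts, Htr5a in KO was 0.015, Htr7 between genotypes in TRAP 0.025 and Htr1a between genotypes in input -0.0078. Htr7 between genotypes in TRAP was also 0.0035 with a mean of at least 10 counts and 0.0010 with DESeq2. With the replicate block, the values between genotypes were -0.12 for Htr5a and 0.42 for Htr7 in TRAP, and -0.027 for Htr1a, -0.0012 for Htr2c and 0.31 for Htr7 in input, and the difference of enrichment of Drd1a was -0.060. Between genotypes the pools share only a number (correlations of deviations -0.070 to 0.003), so the block joins different mice there. The cause of these shifts was not tested.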
